A study of Mus musculus with 2 samples.

Results

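Trem2, Apoe, Gpnmb, Spp1, Lpl, Lipg, Cd36, Fabp5 and Lgals3 are 9 genes of the state called the lipid-associated macrophage, and they are followed here through the cells of a mouse tumour. They were taken by symbol from the 19070 genes listed for each library, and all 9 were found in both. The genes, and the interest in Lipg in monocytes, were chosen by their UMI levels in these same cells, so their values are a description. The tumours were Lewis lung carcinoma (LLC), an established line of mouse lung cancer cells, grown in mice. The anti-PD-1 library came from mice treated with an antibody that blocks PD-1, a brake on T cells, and its cells were taken 7 days later. The control library came from tumour-bearing mice given an IgG2a isotype antibody, an antibody of the same kind with no target, although the design text calls these cells untreated. Each group is 1 library, so no test is possible, and the number, strain and age of the mice are not given in the sources used here. A difference between the libraries cannot be told apart from one between animals, preparations or collection times.

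Macrophages that take up dying cells and lipoproteins load cholesterol and fatty acids, and many then switch on a shared set of genes. TREM2 is a surface receptor that senses lipids and cell debris and signals through the adaptor TYROBP, and apolipoprotein E carries cholesterol out of the cell and also binds TREM2. The lipases LPL and LIPG act on the lipids of lipoproteins, CD36 and FABP5 bring in and ferry fatty acids, and GPNMB, osteopontin (encoded by Spp1) and galectin-3 (encoded by Lgals3) are glycoprotein and lectin products that mark the state in tumours and in obese tissue. Several of these genes are also used by cells other than macrophages, tumour cells among them.

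Cell classes were set by UMIs (unique molecular identifiers, 1 per captured molecule) of marker genes, without the 9 genes, as counts per 1000000 UMIs of a cell (CPM). Macrophages had at least 3000 CPM of C1qa, C1qb, C1qc, Adgre1, Mrc1 and Ms4a7 summed, and monocytes at least 1000 CPM of Ccr2, Chil3 and Plac8 summed with no UMI of a T, NK or B cell marker, an exclusion added after cytotoxic genes were seen in cells that passed the gate without it. Cells that passed both were called monocyte-macrophage intermediates. Among macrophages, a resident-type subset carried Lyve1, Folr2, Cbr2 or Cd163, and an Arg1/Mmp12 subset carried Arg1 or Mmp12. Timd4, also on the resident list, was nearly absent, with 7 UMIs in anti-PD-1 and 10 in control macrophages. Tumour-marker cells carried at least 500 CPM of Hmga2, Igf2bp1, Igf2bp2 and Wnt7b summed and few leukocyte markers.

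Marker levels differed between the classes as the gates require. Macrophage markers summed to 20722 CPM in anti-PD-1 and 14263 CPM in control macrophages, against 239 and 269 CPM in tumour-marker cells. Macrophages made up 8.32% of kept cells in anti-PD-1 (784 of 9422, 95% exact interval 7.77 to 8.90) and 7.15% in control (600 of 8395, 6.61 to 7.72). The make-up of the macrophages differed: the resident-type subset held 397 anti-PD-1 and 118 control cells, the Arg1/Mmp12 subset 61 and 114, cells with both sets of markers (double-marker macrophages) 32 and 16, and macrophages with neither set, called other macrophages, 294 and 352. There were 299 anti-PD-1 and 189 control intermediates, 287 and 241 monocytes, and 5327 and 3565 tumour-marker cells. Near the thresholds, 13.4% of anti-PD-1 and 39.8% of control resident-type cells lay under 1.5 times the value needed. Cells with both tumour and leukocyte markers, 401 in anti-PD-1 and 699 in control, stayed out of every class, as did 1881 and 2614 cells that met no rule.

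Both libraries had similar totals, with 115407230 UMIs in anti-PD-1 and 113268618 UMIs in control. The median kept cell had 8744 UMIs in anti-PD-1 and 7473 UMIs in control. A set of 107 barcode sequences occurred in both libraries. Without these cells the number of genes past 2-fold was the same in every class, and 1 ratio left its counting interval (Gpnmb in other macrophages, a log2 ratio of 0.13 against 0.52 with them). Free RNA differed between the libraries: globin transcripts of red blood cells stood at 76.3 CPM in anti-PD-1 and 1004 CPM in control macrophages, and at 52.3 and 518 CPM in tumour-marker cells. T cells, which should lack most of the 9 genes, serve below as a gauge of such background; their median depth was 1404 UMIs in anti-PD-1 and 1548.5 UMIs in control, against 13219 and 16671 UMIs in tumour-marker cells.

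All 9 are annotated as protein-coding on GRCm38, the assembly that mm10 names; positions of 8 are given. Trem2 lies on chromosome 17 (48346401 to 48354147, plus strand), Apoe on chromosome 7 (19696109 to 19699188, minus strand), Gpnmb on chromosome 6 (49036546 to 49070929, plus strand) and Spp1 on chromosome 5 (104435118 to 104441050, plus strand). Lpl lies on chromosome 8 (68880491 to 68907448, plus strand), Cd36 on chromosome 5 (17781690 to 17888801, minus strand), Fabp5 on chromosome 3 (10012548 to 10016607, plus strand) and Lgals3 on chromosome 14 (47367751 to 47386160, plus strand).

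Gpnmb and Spp1 were the genes of the set with most of their UMIs in tumour-marker cells and a higher level there in anti-PD-1, so their promoter windows are shown. The windows run 250 bases before to 50 bases after an annotated start (RefSeq, GRCm38.p6). The capitals mark TGACTCA, the motif bound by AP-1 factors. Gpnmb is at chr6:49036268-49036567 and Spp1, which has 2 annotated windows of which the first is shown, at chr5:104434861-104435160, both on the plus strand.
Gpnmb: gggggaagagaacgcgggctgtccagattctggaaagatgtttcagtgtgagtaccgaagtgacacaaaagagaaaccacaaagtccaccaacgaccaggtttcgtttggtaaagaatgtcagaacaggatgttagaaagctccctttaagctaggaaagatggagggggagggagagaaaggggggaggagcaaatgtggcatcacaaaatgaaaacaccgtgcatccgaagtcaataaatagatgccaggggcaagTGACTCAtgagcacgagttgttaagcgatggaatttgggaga
Spp1: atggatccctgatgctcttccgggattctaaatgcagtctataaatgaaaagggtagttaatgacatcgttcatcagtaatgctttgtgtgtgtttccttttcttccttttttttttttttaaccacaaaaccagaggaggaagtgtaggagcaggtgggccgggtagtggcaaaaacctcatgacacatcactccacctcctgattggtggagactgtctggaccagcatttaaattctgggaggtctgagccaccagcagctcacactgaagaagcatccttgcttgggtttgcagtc

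The RefSeq table held 9 windows for 6 of the 9 genes (Cd36, Spp1, Gpnmb, Apoe, Lgals3 and Trem2). TGACTCA, read on both strands, was found in 1 of the 9, the Gpnmb window, 8 bases past the start, and it occurs in 5.20% of 32851 mouse promoter windows. The E-box letters CACGTG (7.15% of all windows) and CATGTG (14.2%), and the nuclear receptor letters AGGTCA repeated with a gap of 1 base (0.0396%) or 4 bases (0.0152%), were in 0 of the 9. A match or its absence in these letters describes the window and says nothing of binding.

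The 9 genes fell into separate groups by the cells that held their transcripts. Trem2, Apoe and Cd36 were held mainly by macrophages in anti-PD-1, at 51.7%, 53.1% and 43.0% of each gene's UMIs, against 32.2%, 31.0% and 24.6% in control. Gpnmb, Spp1 and Lgals3 were held mainly by tumour-marker cells, at 84.0%, 78.8% and 71.7% in anti-PD-1 and 76.2%, 65.0% and 63.2% in control. Lpl and Fabp5 also had the larger part of their UMIs in tumour-marker cells, at 52.9% and 55.1% in anti-PD-1 and 57.4% and 51.3% in control. These shares follow the number and depth of the cells as well as the level in each cell, since tumour-marker cells were the most numerous and the deepest. Lipg stood apart in anti-PD-1, where 14.6% of its UMIs lay in monocytes and 13.1% in intermediates, against 1% and 5% in control. Its largest share was nonetheless in cells with mixed markers, at 23.8% in anti-PD-1 and 31.5% in control. Tumour-marker cells held the next largest share in both libraries. Macrophages held 15.2% of Lipg UMIs in anti-PD-1 and 11.5% in control.

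**Figure D1:**
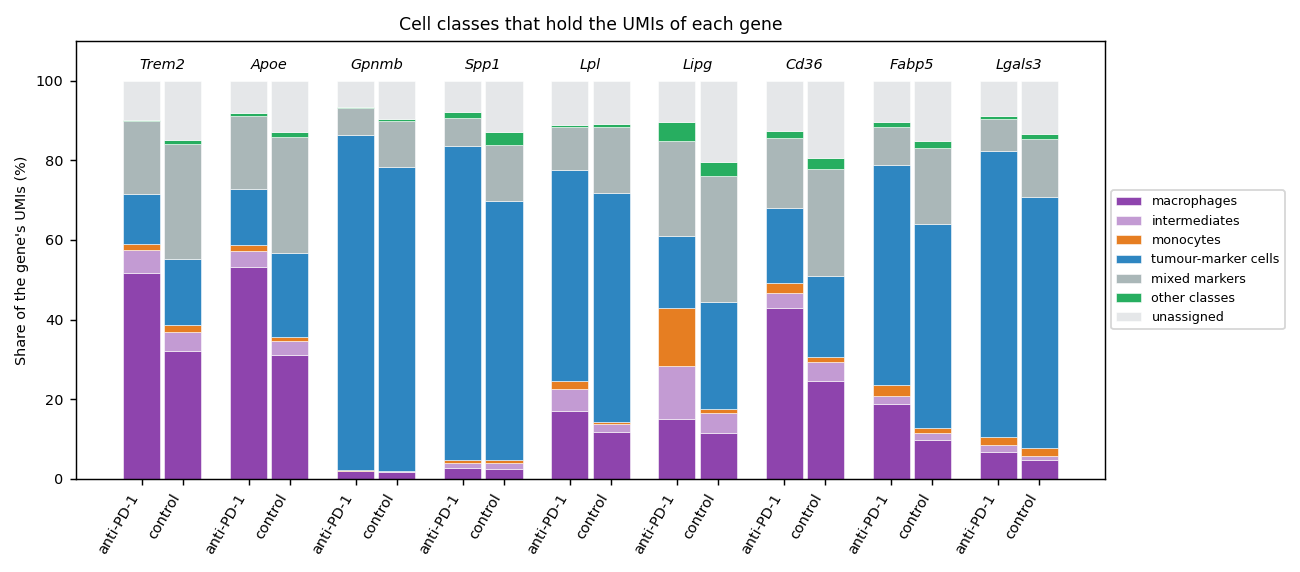
Stacked bars give, for each gene and library, the percentage of the gene's UMIs found in each group of cells (macrophages of all subsets, intermediates, monocytes, tumour-marker cells, cells with mixed markers, other named classes, and unassigned cells). Gpnmb, Spp1 and Lgals3 are mostly tumour-marker colour in both libraries, and the monocyte band of Lipg is 14.6% in anti-PD-1 and 1% in control.

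Over all kept cells, Lipg differed most between the libraries, at 7.94 CPM in anti-PD-1 (916 UMIs) and 1.77 CPM in control (200 UMIs), a log2 ratio of 2.17 (95% counting interval 1.95 to 2.40). Spp1 had 942 CPM in anti-PD-1 and 501 CPM in control (log2 ratio 0.91), and Gpnmb 701 and 455 CPM (0.62). Fabp5 was lower in anti-PD-1, at 38.6 against 69.5 CPM (-0.85). Trem2 was close in both, at 19.1 and 18.7 CPM (0.03). Counting intervals here and below cover counting error only.

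Trem2, the receptor, was a macrophage transcript in these tumours. Resident-type cells had 290.5 CPM in anti-PD-1 (826 UMIs, interval 271 to 311) and 326 CPM in control (244 UMIs, 286 to 369). The Arg1/Mmp12 subset had 282 and 236 CPM, other macrophages 162 and 173 CPM, intermediates 139 and 157 CPM, and monocytes 46.1 and 56.3 CPM. The order of these 5 classes was the same in both libraries. Neighbours whose intervals overlapped were resident-type and Arg1/Mmp12 cells in anti-PD-1, Arg1/Mmp12 cells and other macrophages in control, and other macrophages and intermediates in both. A Trem2 UMI was present in 54.6% of anti-PD-1 and 46.5% of control macrophages, and in 29.3% (25.9 to 32.8) and 25.4% (21.8 to 29.4) after each cell was thinned to 1500 UMIs, which left out 87 and 69 shallower cells. T cells held 0 Trem2 UMIs in anti-PD-1, which allows up to 33.6 CPM, and 6 UMIs in control (17.7 CPM). Tumour-marker cells, at 3.08 and 4.38 CPM, did not stand above that background.

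Apoe, the lipid carrier, was higher in the resident-type subset than in Arg1/Mmp12 and other macrophages, at 13851 CPM in anti-PD-1 and 14083 CPM in control. Arg1/Mmp12 cells had 6713 and 7791 CPM, other macrophages 6573 and 6623 CPM, intermediates 4410.1 and 4707 CPM, and monocytes 1809.8 and 1408 CPM. The level therefore stepped down from resident-type cells to monocytes in both libraries, though the intervals of Arg1/Mmp12 and other macrophages overlapped in anti-PD-1. Over all macrophages together Apoe was higher in anti-PD-1, at 11769 against 8886 CPM (log2 ratio 0.41, 0.38 to 0.43). Within the subsets the log2 ratios were -0.02, -0.21 and -0.01, and the pooled difference went with the larger number of resident-type cells in anti-PD-1. The sign within subsets was not stable, with 0.45 in resident-type cells when cells holding a tumour-marker UMI were left out, and 0.33 in Arg1/Mmp12 cells without the deepest cells. T cells had 228 CPM in anti-PD-1 (147 to 336) and 499.9 CPM in control (427 to 581). Tumour-marker cells, at 148 and 223 CPM, did not stand above this background gauge.

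Gpnmb, a lysosome-linked glycoprotein, was higher in the Arg1/Mmp12 subset than in resident-type and other macrophages, with 1103 CPM in anti-PD-1 (266 UMIs) and 848 CPM in control (385 UMIs). Resident-type cells had 240.2 and 191 CPM and other macrophages 309 and 216 CPM. T cells had 155 CPM in anti-PD-1 (90.1 to 248) and 118 CPM in control (84.5 to 161), and these intervals overlapped those of resident-type cells. A small number of cells carried much of it: the 5 richest cells held 62.4% of the UMIs of the Arg1/Mmp12 subset in anti-PD-1 and 40.3% in control. Cd36, the fatty acid and oxidized lipoprotein receptor, was also higher in that subset, at 547 CPM in anti-PD-1 and 685 CPM in control, against 194 and 220.2 CPM in resident-type cells. Fabp5, a cytosolic fatty acid carrier, had 444 and 615 CPM in Arg1/Mmp12 cells and 172 and 168 CPM in resident-type cells. Lgals3, the galectin, had 1945 and 1643 CPM in Arg1/Mmp12 cells, 1503 and 1677 CPM in monocytes, and 793 and 703 CPM in resident-type cells. The resident-type and Arg1/Mmp12 subsets thus held opposite ends of the set. Apoe was higher in resident-type cells, and Gpnmb, Cd36, Fabp5 and Lgals3 in Arg1/Mmp12 cells, in both libraries and with intervals that did not overlap. Higher levels of Gpnmb and Lgals3 lay in a cluster of 107 anti-PD-1 and 267 control cells, of which 19.5% were placed by a gate. This cluster, made without the genes of the set, had 2382 and 1207 CPM of Gpnmb and 3088 and 3512 CPM of Lgals3. Its Cd36 stood at 673 and 353 CPM and its Fabp5 at 471 and 529 CPM.

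The double-marker macrophages, 32 anti-PD-1 and 16 control cells, carried the set at high levels but rest on few cells. They had 439 and 464 CPM of Trem2, 14622 and 12289 CPM of Apoe, and 1166 and 878 CPM of Cd36, so that Trem2 and Cd36 were above the levels of the other subsets in both libraries, and Apoe in anti-PD-1. Gpnmb had 1573 CPM in anti-PD-1 (290 UMIs) and 335 CPM in control (34 UMIs). Spp1 had 1752 CPM in anti-PD-1 (323 UMIs) and 266 CPM in control (27 UMIs). Lpl went the other way, with 293 CPM in anti-PD-1 (54 UMIs) and 897 CPM in control (91 UMIs). The 5 richest cells held 86.9% and 91.2% of the Gpnmb UMIs, 87.9% and 81.5% of the Spp1 UMIs and 75.9% and 98.9% of the Lpl UMIs, so these differences lie in a handful of cells, and the subset is left out of the counts of genes past 2-fold.

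**Figure D2:**
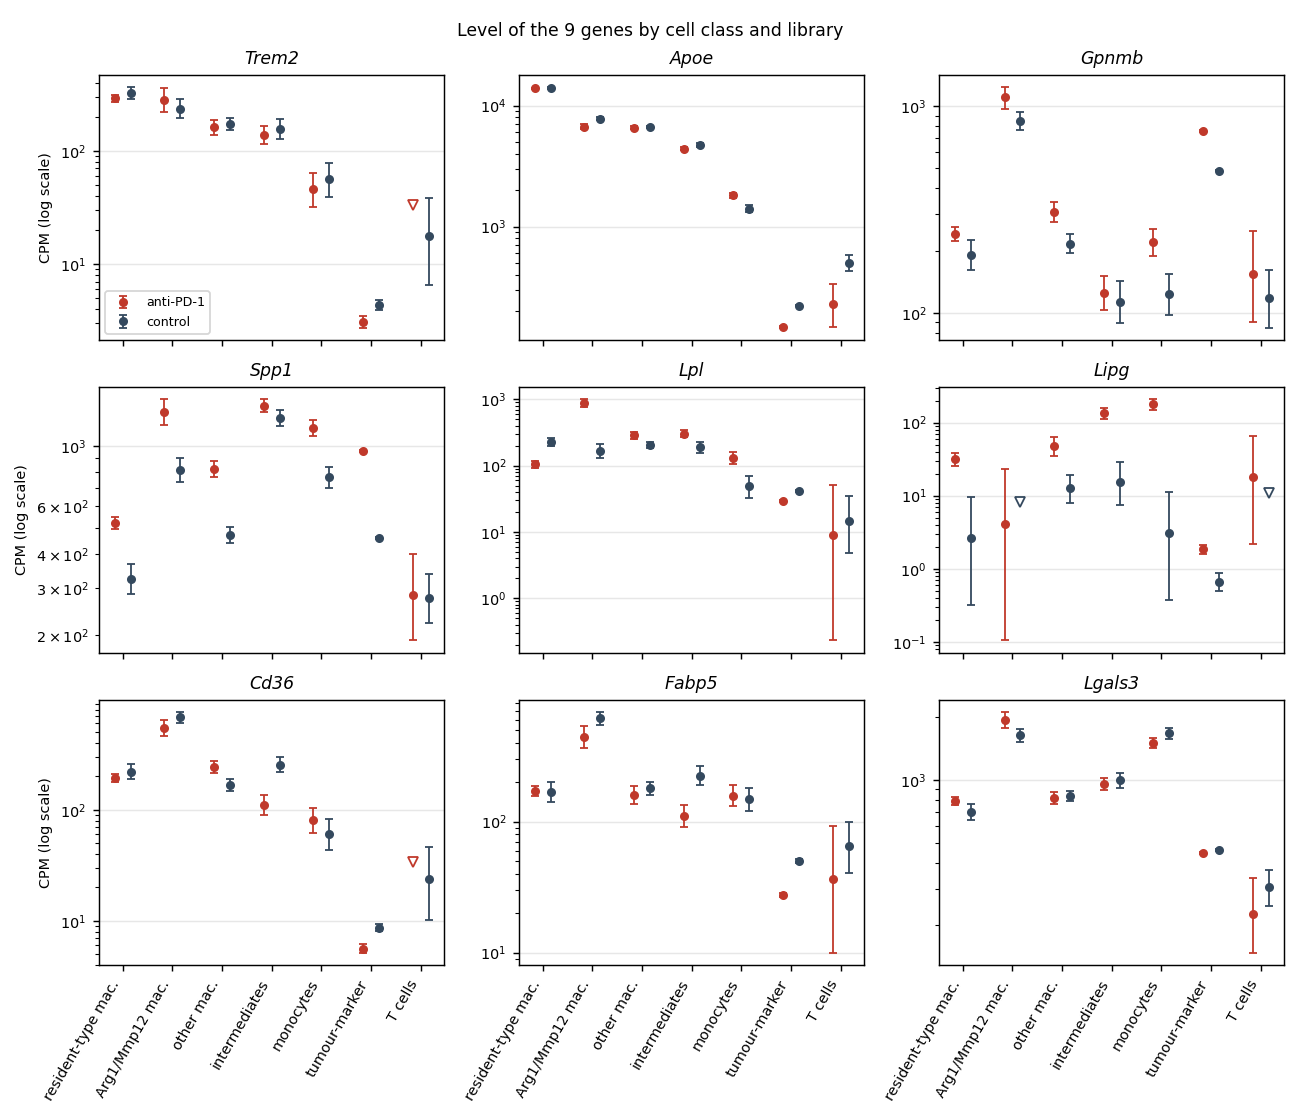
Each panel gives 1 gene's level in CPM on a log axis (the scale differs between panels) for 6 classes and for T cells as the background gauge; points are anti-PD-1 (left) and control (right), bars are exact 95% Poisson intervals, and open triangles are the upper limit where no UMI was found. Trem2 and Apoe step down from resident-type macrophages to monocytes in both libraries, and Lipg in monocytes is at 176 CPM in anti-PD-1 and 3.13 CPM in control.

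Between the libraries, most of the genes differed little within a macrophage subset. A gene counted as measured with at least 100 UMIs over both libraries in a class, and as past the threshold at a 2-fold difference. In resident-type cells 0 of 8 measured genes were over 2-fold higher in anti-PD-1, where 0.768% of all 6507 measured genes were, and 1 was over 2-fold lower, against 1.09% of all. In the Arg1/Mmp12 subset 1 of 8 was higher (1.42% of all 1408 genes) and 0 lower (1.63%), and in other macrophages 0 of 8 were higher (0.549%) and 0 lower (1.1%). Lipg, with 91, 1 and 69 UMIs, was under the minimum in all 3 subsets. The median log2 ratio of the measured genes was 0.01, 0.25 and 0.24 in the 3 subsets, beside -0.01, -0.01 and -0.02 for all genes. Over all macrophages 1 of 9 genes, Lipg, was over 2-fold higher (0.642% of 8726 genes) and 0 were lower (1.51%). Lipg had 139 UMIs in anti-PD-1 and 23 in control macrophages, so it reached the minimum only through the library where it was high.

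Lpl, the lipase that frees fatty acids from triglyceride-rich lipoproteins, was past 2-fold in the Arg1/Mmp12 and the resident-type subset, in opposite directions. Arg1/Mmp12 cells had 879 CPM in anti-PD-1 (212 UMIs, 765 to 1006) and 167 CPM in control (76 UMIs, 132 to 210), a log2 ratio of 2.39 (2.01 to 2.79). The subset is small, and 5 cells held 67.5% of its Lpl UMIs in anti-PD-1 and 60.5% in control. The ratio was 2.11 without them, on slightly fewer UMIs than the count minimum. Cells of the subset also differed between the libraries in Mmp12 (4499 and 2154 CPM), Arg1 (1165 and 1427 CPM) and Col1a1 (1824 and 119 CPM). The part of this make-up in the Lpl ratio was not tested. An Lpl UMI was present in 44.3% of anti-PD-1 and 17.5% of control cells of the subset, and in 29.8% (18.4 to 43.4) and 12.8% (7.20 to 20.6) after thinning, with 4 and 5 cells left out. Resident-type cells had 104 CPM in anti-PD-1 (296 UMIs) and 227 CPM in control (170 UMIs), a log2 ratio of -1.12 (-1.40 to -0.84). Other macrophages had 285 and 204 CPM, a ratio of 0.49, and all macrophages together 199 and 228 CPM, a ratio of -0.20. With gate thresholds halved the ratio in the Arg1/Mmp12 subset was 0.95, when cells were thinned before summing it was 1.59, and with thresholds doubled the ratio in resident-type cells was -0.70. T cells had 1 Lpl UMI in anti-PD-1 and 5 in control (9.10 and 14.8 CPM).

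Spp1, which encodes the secreted adhesion protein osteopontin, had a higher level in anti-PD-1 in the resident-type, Arg1/Mmp12 and other macrophages without reaching 2-fold. It had 1335 against 815 CPM in Arg1/Mmp12 cells (log2 ratio 0.71), 823 against 470.3 CPM in other macrophages (0.81) and 521 against 324 CPM in resident-type cells (0.69). The ratio in Arg1/Mmp12 cells ran from -0.01 with thresholds doubled to 1.26 with thresholds halved, and that in resident-type cells reached 1.41 without the 5 richest cells. The shares of cells with a UMI after thinning were 46.7% (40.1 to 53.4) in anti-PD-1 and 26.7% (21.7 to 32.2) in control other macrophages, with 67 and 64 cells left out, against 56.8% and 38.1% before thinning. T cells, at 282 CPM in anti-PD-1 and 275 CPM in control, had similar levels in both libraries, but other classes did not. Dendritic cells had 620 and 120 CPM and neutrophils 1574 and 669 CPM, while NK cells (4053 and 5905 CPM) and fibroblasts (744 and 788 CPM) were lower in anti-PD-1. The control resident-type interval (285 to 368 CPM) overlapped that of control T cells (222 to 337 CPM). The part of background in the Spp1 ratios was not tested. Gpnmb had log2 ratios of 0.38, 0.52 and 0.33 in the same 3 subsets, which moved widely between settings. It ran from -0.63 with thresholds halved to 1.69 with thresholds doubled in Arg1/Mmp12 cells, reached 1.88 with thresholds doubled in resident-type cells, and was -0.02 in other macrophages without the deepest cells. Trem2, Cd36, Fabp5 and Lgals3 had ratios between -0.47 and 0.54.

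**Figure D3:**
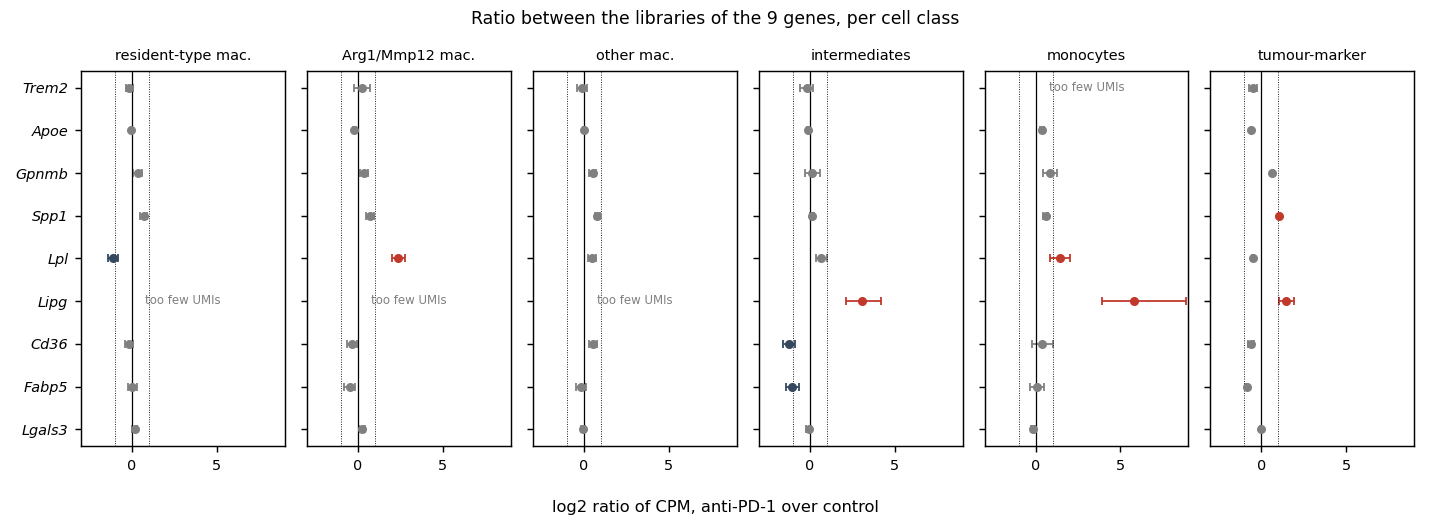
Points give the log2 ratio of CPM, anti-PD-1 over control, for each gene (rows) in 6 cell classes (panels), with exact 95% counting intervals; dotted lines mark 2-fold, and genes under 100 UMIs in a class are written as too few UMIs. Lpl is to the left of the lower line in resident-type macrophages and to the right of the upper line in Arg1/Mmp12 macrophages and monocytes, and Lipg is farthest right in monocytes, at 5.82.

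In monocyte-macrophage intermediates 1 of 9 genes was over 2-fold higher in anti-PD-1, where 0.556% of 3598 genes were, and 2 were lower, against 1.11% of all. Lipg was the higher one, at 133 CPM in anti-PD-1 (120 UMIs) and 15.5 CPM in control (10 UMIs), a log2 ratio of 3.10 (2.17 to 4.19) that was 1.60 with thresholds doubled. It reached the count minimum only through its anti-PD-1 UMIs, so its place in the count is no result about the set. Cd36 had 111 against 255 CPM (-1.20, -1.58 to -0.83) and Fabp5 had 111 against 224 CPM (-1.01, -1.40 to -0.64). Both of these came within 2-fold in several settings, for example -0.94 and -0.61 when each cell was thinned and -0.76 and -0.60 without the 5 richest cells. Spp1 was high in this class in both libraries, at 1409 CPM in anti-PD-1 and 1268 CPM in control, and Lpl had 304 and 190 CPM (0.68, and -0.10 without cells holding a tumour-marker UMI).

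In monocytes 2 of 8 measured genes, Lipg and Lpl, were over 2-fold higher in anti-PD-1, where 0.982% of 3257 genes were, and 0 were lower, against 1.17% of all. Lipg was chosen for this pattern. Both Lipg and Lpl (99 UMIs in anti-PD-1, 31 in control) reached the count minimum only through the library where they were high. The count of 2 is therefore no result about the set. Lipg encodes endothelial lipase, which acts on the phospholipids of high-density lipoprotein. Monocytes had 134 Lipg UMIs in anti-PD-1 (176 CPM, 148 to 209) and 2 in control (3.13 CPM, 0.379 to 11.3), a log2 ratio of 5.82 whose counting interval of 3.94 to 8.88 is wide because the control count is so low. A Lipg UMI was present in 34 of 287 anti-PD-1 monocytes (11.8%) and 2 of 241 control monocytes (0.830%), and after thinning in 9.96% (6.55 to 14.4) and 0.952% (0.116 to 3.40), with 36 and 31 shallower cells left out. Most anti-PD-1 monocytes therefore had no Lipg UMI, and the 5 richest cells held 44.8% of the UMIs. Without those 5 cells the log2 ratio was 4.38, with the T, NK and B cell exclusion dropped it was 5.30, and with monocytes taken as a cluster of 924 anti-PD-1 and 666 control cells it was 3.04.

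Lipg was not confined to monocytes in anti-PD-1. Intermediates had 133 CPM, other macrophages 47.7 CPM (48 UMIs in anti-PD-1, 21 in control) and resident-type cells 31.3 CPM (89 and 2 UMIs). Arg1/Mmp12 macrophages had 1 UMI in anti-PD-1 and 0 in control. Neutrophils had 18 UMIs in 4 anti-PD-1 cells, 15 of them in 1 cell, and 0 in control, dendritic cells 8 and 0, and NK cells 9, all in 1 cell, and 0. T cells had 2 UMIs in anti-PD-1 (18.2 CPM, 2.20 to 65.8) and 0 in control, which allows up to 10.9 CPM. The intervals of monocytes, intermediates and neutrophils in anti-PD-1 overlapped, so their order is not settled.

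Among leukocytes of anti-PD-1 the Lipg level increased with the summed level of Ccr2, Chil3 and Plac8. It was 33.2 CPM below 500 CPM of those markers, 43.8 CPM at 500 to 1000, 73.4 CPM at 1000 to 2000, and 187 CPM (163 to 214) at 2000 and over. In control the same bins had 8.56, 6.45, 4.21 and 12.2 CPM, with 4 to 30 UMIs each. Binned by the summed macrophage markers instead, anti-PD-1 leukocytes had 74.5 CPM below 500, 119 CPM at 500 to 3000, 88.2 CPM at 3000 to 10000 and 35.6 CPM above, so the level was lowest in the cells richest in macrophage markers. The control bins had 0.960, 9.14, 19.5 and 1.93 CPM.

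**Figure D4:**
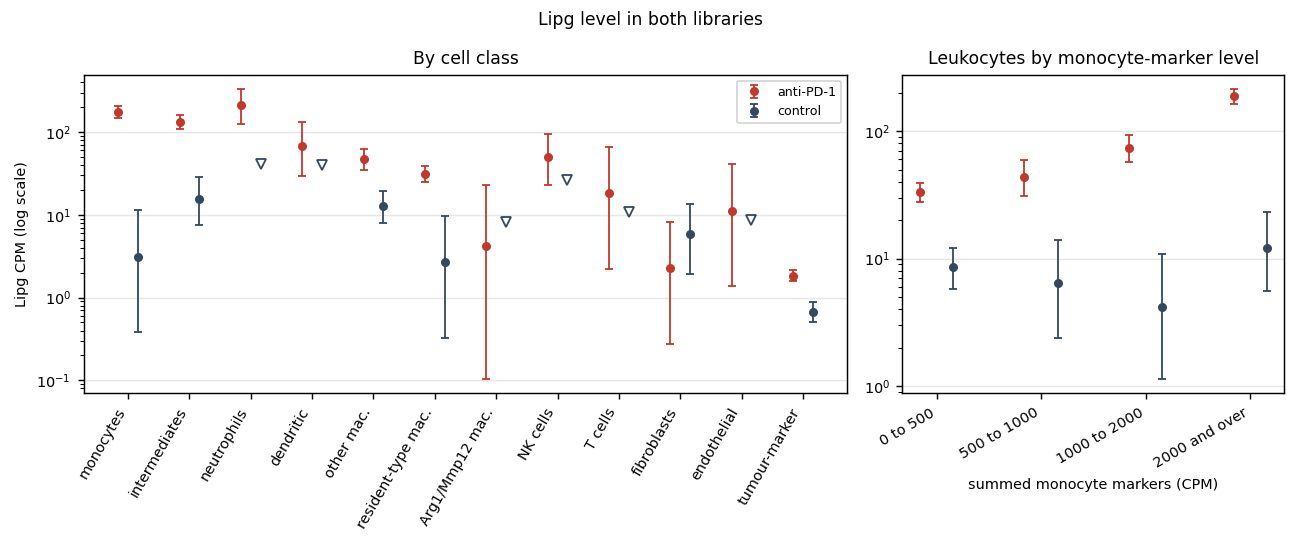
The left panel gives the Lipg level in CPM on a log axis for 12 classes, and the right panel for leukocytes binned by their summed Ccr2, Chil3 and Plac8 level; points are anti-PD-1 (left) and control (right) with exact 95% Poisson intervals, and open triangles are upper limits where no UMI was found. In the right panel anti-PD-1 goes from 33.2 CPM in the lowest bin to 187 CPM in the highest, and control stays between 4.21 and 12.2 CPM.

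The other genes of the set moved less in monocytes. Lpl had 130.3 CPM in anti-PD-1 (99 UMIs) and 48.5 CPM in control (31 UMIs), a log2 ratio of 1.43 (0.83 to 2.06) that was 0.87 with halved thresholds and 0.72 from clusters. Gpnmb had 219.8 and 123 CPM (0.83, and -0.31 without cells holding a tumour-marker UMI), Spp1 1165 and 769 CPM (0.60) and Apoe 1809.8 and 1408 CPM (0.36). For Gpnmb the T cell gauge was 155 CPM in anti-PD-1 (90.1 to 248) and 118 CPM in control (84.5 to 161). Monocytes did not stand clear of it in either library. Cd36, Fabp5 and Lgals3 had ratios of 0.40, 0.09 and -0.16. Macrophage markers summed to 1202 CPM in anti-PD-1 and 830.0 CPM in control monocytes, and their part in these ratios was not tested. The median over the 8 measured genes, Lipg among them, was 0.50, beside 0.01 for all genes of the class.

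In tumour-marker cells 2 of 9 genes were over 2-fold higher in anti-PD-1, where 0.847% of 11805 genes were, and 0 were lower, against 3.49% of all. Spp1 had 957 CPM in anti-PD-1 (85663 UMIs) and 458 CPM in control (36861 UMIs), a log2 ratio of 1.06 (1.05 to 1.08). A Spp1 UMI was present in 95.7% of anti-PD-1 and 91.4% of control cells, and in 62.6% (61.3 to 63.9) and 40.1% (38.5 to 41.8) after thinning to 1500 UMIs. Thinned before summing, the ratio was 0.98. The second gene past 2-fold was Lipg, at 1.84 and 0.671 CPM, and its ratio was 0.52 after thinning. These levels were below that of anti-PD-1 T cells and below what 0 UMIs allow in control T cells, so the ratio is read no further.

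Gpnmb had 759 CPM in anti-PD-1 and 488 CPM in control tumour-marker cells, a log2 ratio of 0.64 (0.62 to 0.66), but it behaved differently from Spp1 when the cells were split. Clusters made without the 9 genes divided the tumour-marker cells into 9 groups with at least 30 cells of each library. Spp1 was higher in anti-PD-1 in 9 of 9, with log2 ratios from 0.67 to 1.87. Gpnmb was higher in 5 of 9, from -0.36 to 0.82, and 0.10 when the clusters were weighted equally. Cluster 0, with 1918 anti-PD-1 and 139 control tumour-marker cells, had 1295 and 1294 CPM of Gpnmb and 1152 and 515 CPM of Spp1. The pooled Gpnmb difference thus moved with how many cells of each library fell in this cluster, and a cluster made mostly of 1 library may stand for that library and not for a cell type.

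**Figure D5:**
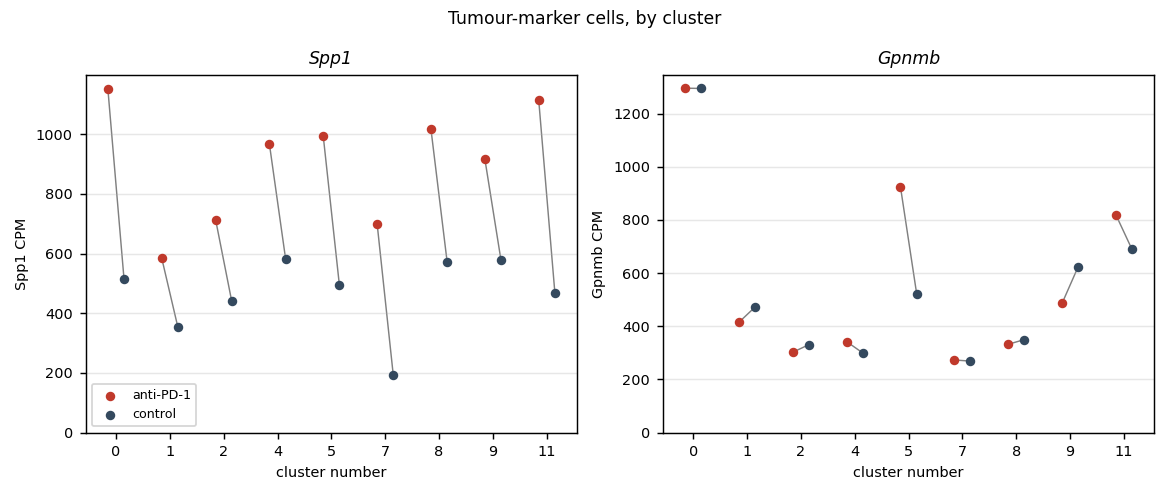
Each pair of points gives the level in CPM of Spp1 (left panel) or Gpnmb (right panel) in the tumour-marker cells of 1 cluster, anti-PD-1 left and control right, joined by a line; cluster numbers have no order. All 9 lines of Spp1 slope down from anti-PD-1 to control, while Gpnmb is at 1295 and 1294 CPM in cluster 0 and goes either way in the others.

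Lgals3 had 446 CPM in anti-PD-1 and 460.2 CPM in control tumour-marker cells, a log2 ratio of -0.04. Lpl was lower, at 29.3 against 41.2 CPM (-0.49). Both levels were above those of T cells, but the anti-PD-1 level lay within the T cell interval (0.230 to 50.7). Fabp5 had 27.4 against 50.2 CPM (-0.87, and -1.15 when cells were thinned), Cd36 5.61 against 8.66 CPM (-0.63) and Apoe 148 against 223 CPM (-0.59). Fabp5 and Apoe lay below the T cell gauge, which for Fabp5 was 36.4 CPM in anti-PD-1 and 65.1 CPM in control. For Cd36 the gauge was 23.7 CPM in control, and 0 UMIs in anti-PD-1, which allows up to 33.6 CPM. Their lower values in anti-PD-1 go with the lower globin background there; the part of free RNA was not tested.

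Across classes the genes did not form a single block. Over 24 points, each a class in 1 library with at least 30 cells, Trem2, Apoe and Cd36 had Pearson correlations of log2(CPM + 1) between 0.83 and 0.90 with each other. Lpl had 0.85 with Trem2 and 0.88 with Apoe, and Fabp5 0.83 with Trem2 and 0.85 with Cd36, while Lipg had 0.00 with Trem2 and 0.17 with Apoe. The points share libraries, depth and classes, so these are descriptions. Of 10596 genes compared, the most alike were Adgre1, the macrophage antigen F4/80, for Apoe (0.96), Pf4, a platelet and macrophage chemokine, for Trem2 outside the set (0.90), Slc6a8, the creatine transporter, for Gpnmb (0.86), B4galt5 for Spp1 (0.77) and Daglb for Lpl (0.92). For Lipg the most alike was Ifit1bl1, an interferon-induced gene of the Ifit cluster (0.82).

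The other genes of lipid handling, in 6 lists, had 0 measured genes past 2-fold in resident-type and other macrophages. In Arg1/Mmp12 cells 1 of 5 measured genes of lipid uptake and hydrolysis and 1 of 4 of lipid binding and storage were over 2-fold higher (1.42% of all genes). The second was Acsl4, which activates fatty acids, at 224 against 108 CPM (1.05), and was noticed after its values were seen. Acsl4 reached the count minimum only through the library where it was high, so the 1 of 4 is no result about the list. Of the TREM2 signalling list, 9 of 10 genes were measured in resident-type cells and 0 passed 2-fold in either direction. Tyrobp, the TREM2 adaptor, had 1532 CPM in anti-PD-1 and 2057 CPM in control (-0.43), and Syk, the kinase below it, 264 and 358 CPM (-0.44). In the cholesterol efflux and LXR list 0 of 12 measured genes passed 2-fold in resident-type cells, 0 of 4 in Arg1/Mmp12 cells and 0 of 12 in other macrophages. Its named members in Arg1/Mmp12 cells included Pltp, the phospholipid transfer protein, at 1302 and 751 CPM (0.79), and Abca1, the cholesterol exporter, at 1244 and 1112 CPM (0.16). The 12 measured lysosome and lipid-state genes of the Arg1/Mmp12 subset had a median log2 ratio of 0.22 beside -0.01 for all genes, with Ctsl, a lysosomal protease, at 5353 and 3701 CPM (0.53) and Cd9 at 759 and 485 CPM (0.65).

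Among the lipid uptake and hydrolysis genes, Hilpda, a hypoxia-induced inhibitor of fat breakdown, had a lower level in anti-PD-1, at 86.9 against 361 CPM in monocytes (-2.06, -2.47 to -1.66) and 73.7 against 182 CPM in all macrophages (-1.31). Within the subsets its log2 ratio was -0.76 in resident-type cells, -0.48 in Arg1/Mmp12 cells and -0.50 in other macrophages. It was the 1 gene of 7 measured in that list over 2-fold lower in monocytes, where 1.17% of all genes were. Of 9 measured TREM2 signalling genes 1 was over 2-fold higher in monocytes (0.982% of all genes), Ms4a7 at 134 against 54.7 CPM, which is also a macrophage marker. Ms4a7, with 102 and 35 UMIs, reached the count minimum only through anti-PD-1, so this count is no result about the list. In monocytes the cholesterol list had 1 gene over 2-fold higher, Pltp at 372 against 169 CPM (1.14), and 1 lower, Abca1 at 129 against 263 CPM (-1.03). Plin2, the lipid droplet coat protein, had 254 against 294 CPM in monocytes and 502 against 522 CPM in Arg1/Mmp12 cells, ratios of -0.21 and -0.06 whose intervals included 0.

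Receptors of the secreted members were also measured. Cd44, a receptor of osteopontin, had 1048 CPM in anti-PD-1 and 723 CPM in control resident-type cells (0.53), 1493 and 958 CPM in Arg1/Mmp12 cells (0.64) and 1264 and 826 CPM in other macrophages (0.61). In tumour-marker cells Itgav, the alpha-v integrin chain that binds osteopontin, had 459 and 348 CPM (0.40). There, 0 of 12 measured genes of this list were over 2-fold higher (0.847% of all genes) and 2 were lower (3.49%), Itgb3 at 1.62 against 5.45 CPM and Itga9 at 1.55 against 3.49 CPM. No T cell gauge is given for these 2 low levels, and the part of background in them was not tested. The median over the measured genes of the list lay between log2 ratios of 0.06 and 0.28 in the 7 class comparisons, without a gene over 2-fold higher in any.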

How the data were processed

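Single-cell libraries of LLC tumours were measured, 1 from anti-PD-1 and 1 from control mice. The deposited values are raw counts (UMIs) for each barcode, written by Cell Ranger 9.0.1 per the file headers; the submitters' processing notes name version 7.0.1 and mm10. Per the labels, the GEM-X Flex kit was used, a kit that captures transcripts with probes, and a 3' protocol is named too. Levels from probes cannot be set side by side between genes, so each gene is compared with itself across classes and libraries.

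A barcode was kept with 300 or more genes and no more than 20% of UMIs from mitochondria (9422 of 9423 in anti-PD-1, 8395 of 8441 in control). Classes came from summed marker UMIs, at least 3 per list. Thresholds were set on the markers' own distributions after the data were seen; Ly6c2, also listed, was not used here. No doublet caller was run. Cells with tumour and leukocyte markers were left out, as were cells with macrophage markers and those of T, NK, B or dendritic cells or neutrophils. A cell that passed several of the latter gates took the first, and monocyte markers did not exclude it. Cells with mixed markers therefore remain in those classes. UMIs were summed per class and library, with exact Poisson intervals (95%) for CPM, exact conditional binomial intervals for log2 ratios, and Clopper-Pearson intervals for shares. A count of 0 was set at 3 counts per library. With 1 library per group there is no test.

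The 9 genes, the gene lists and the naming rule were all chosen with earlier results of these data known. Each list names up to 4 genes per class with the largest ratio and at least 200 UMIs, and the 3 genes most alike by Pearson correlation are computed for each of the 9; some of these are named. The scripts used Python 3.11.15, numpy 2.4.6, scipy 1.17.1, pandas 2.3.3 and, for 19 Leiden clusters at resolution 1 made without the 9 genes, scanpy 1.11.5, and were tested on simulated data. Alternatives covered cell filters, gate thresholds, clusters, scaling, thinning, depth, the richest cells, shared barcodes and the monocyte exclusion; the last 3 were added after the data were seen. Not every gene of the lists is reported here.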

Additional observations from a re-analysis of the deposited data

Results flagged for a closer look

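Lpl was past 2-fold in opposite directions in different classes of the same pair of libraries. Its log2 ratio, anti-PD-1 over control, was 2.39 in Arg1/Mmp12 macrophages and 1.43 in monocytes, and -1.12 in resident-type macrophages. In monocytes Lpl reached the count minimum only through the library where it was high. In double-marker macrophages, which carry the markers of both subsets, Lpl had 293 CPM in anti-PD-1 (54 UMIs) and 897 CPM in control (91 UMIs). The difference between the classes was not tested, since each group is 1 library. The Arg1/Mmp12 subset held 61 anti-PD-1 and 114 control cells, the monocytes 287 and 241, and the resident-type subset 397 and 118.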

How the results depend on the processing

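No paired analysis was possible because each group is 1 library, whose number 1 only names it. The Lipg ratio in monocytes was past 2-fold in 13 of 13 alternatives, in some of them on fewer UMIs than the count minimum, at log2 ratios from 3.04 (clusters) to 5.83. The number of genes past 2-fold moved in several settings. The share of all genes past 2-fold in each setting is not given here, so the counts below describe the settings and are no result about the set. Doubled thresholds gave 3 in Arg1/Mmp12 macrophages and 1 in intermediates, and halved thresholds 1 in intermediates and 0 in monocytes, where Lipg, at 4.34, was under the count minimum. Clusters gave 0 in all macrophages and 1 in monocytes. Thinning before summing gave 1 in intermediates and 1 in tumour-marker cells, where Fabp5 passed 2-fold and Spp1, at 0.98, and Lipg did not. The mean of per-cell CPM and leaving out the deepest cells each gave 1 in intermediates. Without immune cells holding a tumour-marker UMI there were 3 in resident-type cells, 1 in intermediates, and 0 in all macrophages and monocytes, where Lipg fell under the count minimum in monocytes with a log2 ratio of 4.23. Without the 5 richest cells there were 3 in resident-type cells, 2 in Arg1/Mmp12 cells and 1 in intermediates. A minimum of 20 UMIs gave 2 in resident-type cells and 1 in other macrophages. No ratio past 2-fold changed sign; some ratios nearer 0 did. Clusters gave no value for the macrophage subsets and intermediates. The cause was not tested. Single cells of high level limit the small classes, and Lipg in control monocytes rests on 2 UMIs.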

Other observations

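The 34 anti-PD-1 monocytes with a Lipg UMI were set beside the 253 without. Of 1657 genes ranked by their log2 ratio between these cells, the 10 highest were Ifit1bl1, Isg20, Slc28a2, Ifit3, Slamf7, Rsad2, Ifit2, Ly6a, Ifit1 and Ddx60, a ranking seen after the values were known; several of them, such as the Ifit genes and Rsad2, are known to be induced by interferon. Rsad2, which encodes the antiviral enzyme viperin, had 6028 CPM in cells with Lipg and 1095 CPM in cells without, and Ifit3 had 1763 and 294 CPM. A Rsad2 UMI was present in 31 of the 34 cells (91.2%) and in 35.6% of the others. The cells with a Lipg UMI were deeper, at a median of 2783 against 2099 UMIs, and were picked by their own counts, so no test was made. They had less Chil3 (388 against 1245 CPM) and Fn1 (1185 against 3611 CPM), more Plac8 (1266 against 636 CPM), and about the same Ccr2 (1492 and 1569.6 CPM). Of the other genes of the set they had more Gpnmb (402 against 179.8 CPM) and Lgals3 (2385 against 1310 CPM), and less Lpl (43.9 against 149 CPM). Over all monocytes, Rsad2 had 1982 CPM in anti-PD-1 and 839 CPM in control, and Ifit1bl1 200.1 and 29.7 CPM.

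NK cells had the highest Spp1 level of any class. It was 4053 CPM in the 88 anti-PD-1 cells (734 UMIs) and 5905 CPM in the 58 control cells (837 UMIs), with 49.3% and 76.5% of the UMIs in 5 cells. A Spp1 UMI was present in 59.1% of anti-PD-1 and 60.3% of control NK cells, against 20.8% and 24.7% of T cells. NK cells had a median of 1885 and 1709 UMIs, and T cells 1404 and 1548.5 UMIs. Monocyte markers had a median of 1371 CPM in anti-PD-1 and 1209 CPM in control NK cells, above the monocyte threshold. Most of this was Ccr2, at 1292 CPM in anti-PD-1 and 1199 CPM in control NK cells, with Plac8 at 237 and 289 CPM. Chil3 had 11.04 and 0 CPM in NK cells (2 and 0 UMIs), against 1091 and 809.7 CPM in monocytes. Monocyte markers did not exclude a cell from the NK class, and the part of monocytes in it was not tested.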
